A study of Mus musculus with 6 samples.

Results

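Fragments of the RNAs encoded by the mitochondrial genome were followed through small RNA libraries made from mouse spermatogonial stem cells in culture. These germ cells renew themselves and sustain sperm production. Members were the 37 genes of GENCODE M21 whose symbol starts with mt-, of 40945 genes with at least 1 exact sense read in the 6 libraries. They comprise 2 rRNAs, 22 tRNAs and 13 protein genes. A read was counted for a gene when it was 18 to 35 nt long and matched the transcript exactly and in sense. Such reads formed 37892 distinct sequences. All 37 genes had reads in every library.

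The series profiled small RNAs of wild type, mhen1-/- and mili-/- cells and used NaIO4 to find RNAs with a modified 3′ end. Groups of 1 library each were wild type RNA treated with NaIO4, mhen1-/- RNA treated with NaIO4, untreated mhen1-/- RNA, untreated mili-/- RNA, RNA bound by a MILI antibody (MABE363, Millipore) in wild type cells, and untreated wild type RNA. Every group shares its origin: germ cells of a male F1 mouse of C57BL/6 and DBA2, aged 15 days and carrying actin-EGFP transgenes, kept on embryonic fibroblast feeders in SF medium. The strain field of the labels gives C57BL/6. The knockout cells came from single colonies picked after transfection of spCas9 with guide RNAs and checked by Sanger sequencing. Hen1 is the enzyme that puts a methyl group on the 2′ oxygen of the last base of a piRNA. MILI belongs to the Piwi family, whose members bind piRNAs. NaIO4 oxidises a 3′ end that has free 2′ and 3′ hydroxyls, and such an RNA is then lost from the library, while a blocked end is kept.

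The mitochondrial genome is transcribed from both strands into long precursors. The tRNAs punctuate these precursors, and their excision by RNase P at the 5′ side and ELAC2 at the 3′ side frees the rRNAs and most mRNAs. The enzyme TRNT1 then adds C, C and A to the 3′ end of each tRNA, where the amino acid is attached. The rRNAs mt-Rnr1 (12S) and mt-Rnr2 (16S) are those of the mitochondrial ribosome, and the 13 proteins are subunits of respiratory complexes I, III and IV and of ATP synthase.

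The first set of sequences carries the result that stood out in 12S rRNA. The 4 fragments below begin at different bases of mt-Rnr1 (chrM:70-1024, plus strand, GRCm38) and share their last base, base 702 of the rRNA. Capitals mark the last 7 bases. The 5th sequence is a fragment of the same stretch that stops at base 695, again with its last 7 bases in capitals.
mt-Rnr1 685-702 (chrM:754-771): aaggtgtagccAATGAAA
mt-Rnr1 680-702 (chrM:749-771): aggtcaaggtgtagccAATGAAA
mt-Rnr1 674-702 (chrM:743-771): aacgttaggtcaaggtgtagccAATGAAA
mt-Rnr1 673-702 (chrM:742-771): aaacgttaggtcaaggtgtagccAATGAAA
mt-Rnr1 674-695 (chrM:743-764): aacgttaggtcaaggTGTAGCC
In the rRNA the shared end is followed by bases 703 to 720 (chrM:772-789), tgggaagaaatgggctac.

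The second set shows tRNA 3′ ends, with the added CCA in capitals. The coordinates cover the encoded part.
mt-Tw 49-CCA (chrM:4998-5016, plus strand): cacacaagtttaacttctgCCA
mt-Tv 51-CCA (chrM:1075-1093, plus strand): tgaccaatgaacactctgaCCA
mt-Ts2 39-CCA (chrM:11651-11671, plus strand): tttaaaaacatggctttcttaCCA
mt-Te 50-CCA (chrM:14071-14090, minus strand): ttgaatgctgtgtagaaataCCA

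The third set shows fragments that start at base 1 of their RNA, with the first 7 bases in capitals. They lead their classes in untreated wild type cells and in the MILI immunoprecipitate. The last of the set, an internal 12S fragment with no capitals, is shown for its reads in the immunoprecipitate.
mt-Ts2 1-22 (chrM:11613-11634): AAGAAAGattgcaagaactgct
mt-Rnr2 1-21 (chrM:1094-1114): ACTAATCctagccctagccct
mt-Rnr1 509-530 (chrM:578-599): aaaactcaaaggacttggcggt

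The libraries held 2604390 to 25240941 reads of 18 to 35 nt, and all shares below refer to these totals. With 1 library per group no difference has a replicate check and no p-value is given, so each comparison is between libraries. The 95% intervals reflect the counting of reads alone. Amplified reads that carry no molecular identifiers are not independent molecules, so the intervals may be too narrow even for counting error. The mhen1-/-, mili-/- and MILI-bound libraries were all set against 1 shared library, untreated wild type. Hairpins of 6 germ line microRNAs had reads in every library. In RPM (reads scaled to 1000000 reads of 18 to 35 nt) they summed to 4380 and 8655 with NaIO4 in wild type and mhen1-/-, to 31393 in untreated mhen1-/-, 163021 in mili-/-, 1887 in the immunoprecipitate and 89637 in wild type. Hairpins of 5 fibroblast microRNAs, the feeders' markers, were also present in all libraries, at 158 to 7407 RPM. They stood at 158 and 819 RPM with NaIO4 in wild type and mhen1-/-, at 2424 in untreated mhen1-/-, 7407 in mili-/-, 236 in the immunoprecipitate and 2470 in wild type. The part of either cell type in the results was not tested. Pluripotency-linked hairpins were present in all libraries, at 9.90 to 544 RPM and at 386 in wild type. Blood hairpins stood at 2.54 to 227 RPM and at 112 in wild type, and muscle hairpins at 0.584 to 15.2 and at 6.15. The liver microRNA hairpin had 0 reads. Fewer cells of a type and less RNA per cell cannot be told apart in such bulk RNA.

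In untreated wild type cells mitochondrial RNAs gave 243354 reads, or 3.32% of the library (3.31 to 3.34). The rRNAs held 71.8% of these reads, the tRNAs 17.6% and the mRNAs 10.5%. mt-Rnr2 led with 118642 reads and mt-Rnr1 followed with 56173. On a scale per length, as RPM divided by the transcript length in kilobases, the order was different, and tRNAs stood at the top. mt-Tv (valine tRNA) had 16063.5 on that scale, mt-Ts2 (a serine tRNA) 14779, mt-Rnr2 10242, mt-Tq (glutamine) 9398, mt-Rnr1 8033, mt-Tp (proline) 7411 and mt-Th (histidine) 6529. The highest mRNA on the same scale was mt-Co1 (subunit 1 of cytochrome c oxidase) at 995, and mt-Atp8 (an ATP synthase subunit) was next at 972. The lowest members were mt-Nd3 at 33.7 and mt-Nd2 at 36.2, subunits of complex I. mt-Tv lies between the 2 rRNA genes, and its level per length was thus above those of its neighbours on either side.

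The mitochondrial share was lower in the library with NaIO4 in both genotypes. Mitochondrial RNAs made up 0.375% of reads in wild type with NaIO4 (38583 reads), against 3.32% in untreated wild type, a ratio of 0.113 (0.112 to 0.114). In mhen1-/- cells they made up 0.901% with NaIO4 (23454 reads) and 1.59% without it (185722 reads), a ratio of 0.567 (0.560 to 0.575). The decrease was 8.86-fold in wild type and 1.76-fold in mhen1-/-, and the mhen1-/- ratio was 5.03 times the wild type ratio. A share depends on what else is in the library, and piRNA-sized reads of 25 to 31 nt made up 69.5% of wild type with NaIO4 and 31.1% of mhen1-/- with NaIO4. Counted per microRNA read, the same ratios were 1.41 in wild type and 1.47 in mhen1-/-, and the mhen1-/- ratio was then 1.04 times the wild type ratio. microRNAs had a share ratio of 0.0800 in wild type and 0.387 in mhen1-/-. With each distinct sequence counted once, the mitochondrial ratio was 0.163 in wild type and 1.62 in mhen1-/-, which turned the direction in mhen1-/-.

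**Figure D1:**
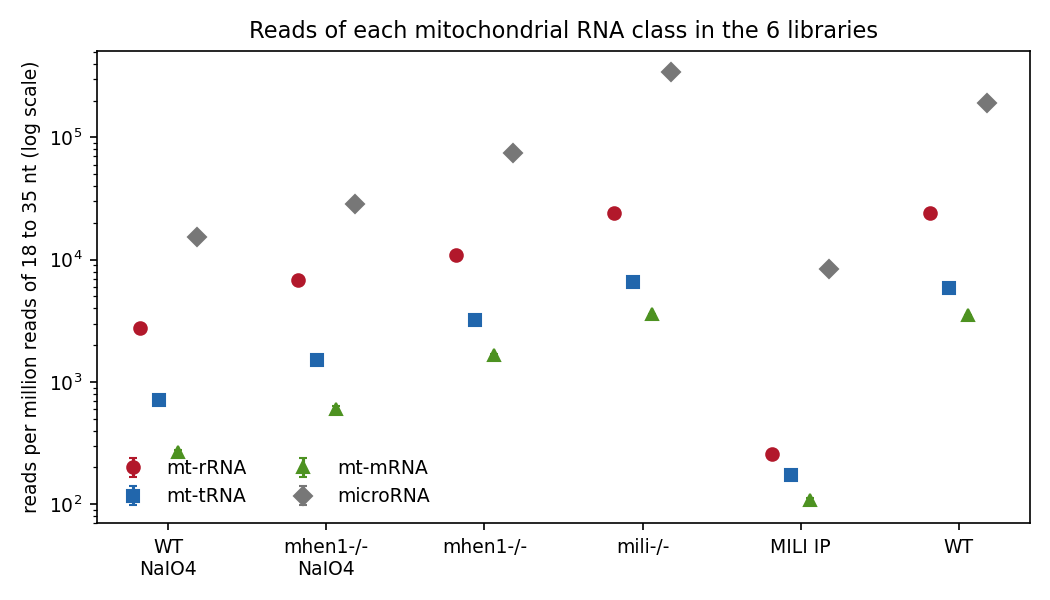
RPM over reads of 18 to 35 nt (log scale) for mitochondrial rRNA, tRNA and mRNA and for microRNAs in each of the 6 libraries; each point is 1 library and bars are 95% counting intervals, smaller than most symbols. Mitochondrial rRNA stood at 2774 in WT with NaIO4 and at 23874 in WT, and all 3 mitochondrial classes were lowest in the MILI immunoprecipitate.

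The 3 classes did not have equal ratios. In wild type the NaIO4 ratio was 0.116 for mt-rRNA, 0.121 for mt-tRNA and 0.0765 for mt-mRNA. In mhen1-/- it was 0.628 for mt-rRNA, 0.469 for mt-tRNA and 0.360 for mt-mRNA. The mRNA fragments thus had the lowest ratio in both genotypes. A setting added after seeing the data left out the reads ending at bases 702 and 703 of mt-Rnr1. The mt-rRNA ratio was then 0.0828 in wild type and 0.398 in mhen1-/-, below that of mt-tRNA in both. Of the nuclear classes set beside them, snRNA and snoRNA fragments had ratios of 0.401 in wild type and 1.24 in mhen1-/-, and nuclear rRNA fragments 3.48 and 15.4.

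At the level of genes, 36 members had at least 50 reads in both wild type libraries together, and all 36 were at least 2-fold lower with NaIO4. Of all 19794 genes that met the same read limit, 9.68% were. In mhen1-/- 25 of 36 members were at least 2-fold lower with NaIO4, where 55.8% of all genes were. No member was at least 2-fold higher in either comparison, where the shares over all genes were 15.8% and 7.72%. mt-Tf (phenylalanine tRNA) was the member below the read limit.

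The rRNAs differed from each other. mt-Rnr2 had 1378 RPM in wild type with NaIO4, 3089 in mhen1-/- with NaIO4, 7676 in untreated mhen1-/- and 16203 in untreated wild type. Its NaIO4 ratios were 0.0851 in wild type and 0.402 in mhen1-/-. mt-Rnr1 had 1395 and 3794 RPM with NaIO4 in wild type and mhen1-/-, against 3281 in untreated mhen1-/- and 7671 in untreated wild type. Its NaIO4 ratios were 0.182 (0.179 to 0.185) and 1.16 (1.13 to 1.18), so that 12S fragments held a larger share of the mhen1-/- library with NaIO4 than without it.

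Among tRNAs the wild type NaIO4 ratio ran from 0.0565 for mt-Tl2, a leucine tRNA, to 0.219 for mt-Tc, the cysteine tRNA, with a median of 0.108 over the 21 that met the read limit. In mhen1-/- it ran from 0.178 for mt-Tt (threonine) to 0.992 for mt-Tw (tryptophan), with a median of 0.384. Counting the reads with added C, CC or CCA moved some of these: in mhen1-/- mt-Tw then stood at 2.09, mt-Tt at 0.515, mt-Te at 0.918 and mt-Tl2 at 0.425, and in wild type mt-Tw at 0.518 and mt-Te at 0.186. The leading tRNAs spread over this range: mt-Tv had 0.178 in wild type and 0.671 in mhen1-/-, mt-Ts2 0.177 and 0.551, and mt-Ts1, the other serine tRNA, 0.152 and 0.852. mt-Tq had 0.0794 and 0.274, mt-Tp 0.0828 and 0.395, mt-Th 0.0747 and 0.226, mt-Tl1 (the other leucine tRNA) 0.0707 and 0.375, and mt-Te (glutamate) 0.0696 and 0.295. Those with the higher ratios in wild type, mt-Tv and both serine tRNAs, were also higher in mhen1-/- than the other 5 of these 8. This order leaves out the reads with added ends, with which mt-Te stood at 0.918 in mhen1-/-.

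Among mRNAs, complex IV subunits had a summed NaIO4 ratio of 0.0675 in wild type and 0.315 in mhen1-/-. For complex I it was 0.0992 and 0.458, for ATP synthase 0.0737 and 0.392, and for complex III, which is mt-Cytb alone, 0.121 and 0.391. mt-Co1 had 97.3 RPM in wild type with NaIO4 and 1538 in untreated wild type, and 196 and 646 with and without NaIO4 in mhen1-/-. mt-Nd5 had the lowest wild type ratio, 0.0584. mt-Nd6, the single protein gene on the minus strand, had the highest in both genotypes, 0.293 in wild type and 1.22 (0.996 to 1.50) in mhen1-/-, from 194 and 471 reads with and without NaIO4 in wild type and 124 and 455 in mhen1-/-. mt-Nd2 came next at 0.246 in wild type and 0.906 in mhen1-/-.

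**Figure D2:**
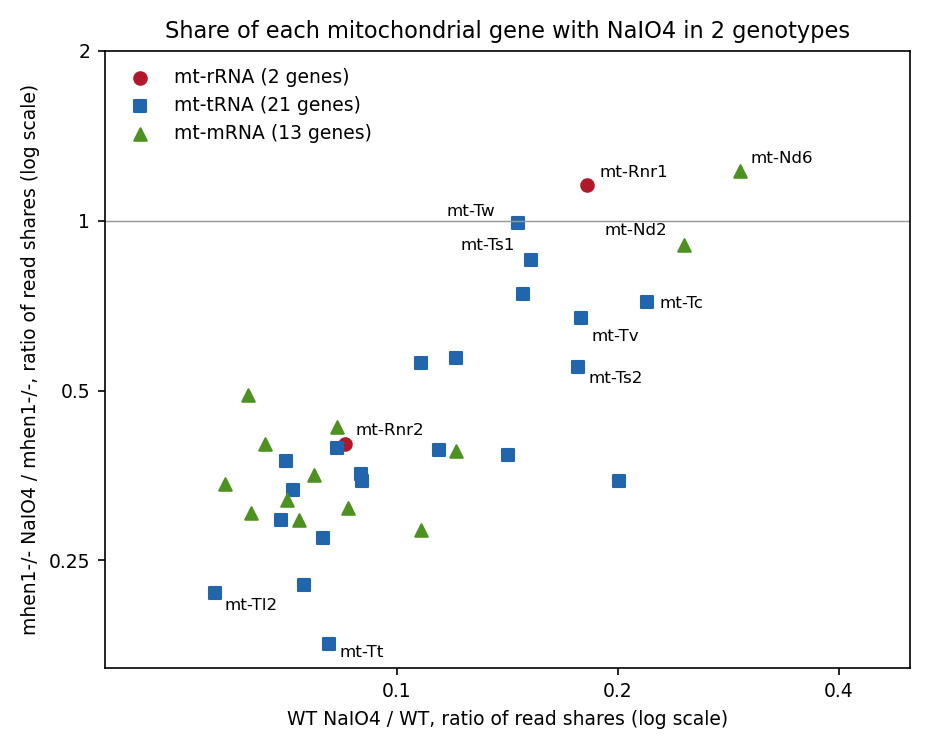
NaIO4 ratio of the read share in mhen1-/- (vertical, log scale) against that in wild type (horizontal, log scale); each point is 1 of the 36 genes with at least 50 reads in each pair of libraries, and the grey line marks a ratio of 1 in mhen1-/-. All points lie below 0.3 in wild type, and only mt-Rnr1 (1.16) and mt-Nd6 (1.22) lie above 1 in mhen1-/-.

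Reads ending at base 702 of mt-Rnr1 numbered 8004 in wild type with NaIO4, 6446 in mhen1-/- with NaIO4, 2636 in untreated mhen1-/-, 1586 in mili-/-, 18 in the immunoprecipitate and 2900 in untreated wild type. In RPM these are 778, 2475, 225, 330, 0.713 and 396 in the same order. This end was higher with NaIO4 in both genotypes, by 1.97-fold in wild type (1.88 to 2.05) and 11.0-fold in mhen1-/- (10.5 to 11.5). It made up 55.8% of 12S reads in wild type with NaIO4 and 65.2% in mhen1-/- with NaIO4, against 6.86% in untreated mhen1-/- and 5.16% in untreated wild type. This position was chosen after its values were seen, and 1 of its sequences was already known from earlier results of these data, so its rank is a description.

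A total of 352 3′-end positions on mitochondrial RNAs reached 100 reads in untreated mhen1-/- and in untreated wild type. Their median NaIO4 ratio was 0.0624 in wild type, with quartiles of 0.0420 and 0.102, and 0.302 in mhen1-/-, with quartiles of 0.211 and 0.427. Base 702 lay 31.5 times above the median in wild type and 36.4 times above it in mhen1-/-, the highest of the 352 in each. The next base, 703, was 2nd in each, with ratios of 1.23 from 566 and 329 reads in wild type and 7.20 from 375 and 234 reads in mhen1-/-. These were the 2 positions above 1 in wild type, while 16 were above 1 in mhen1-/-. At a limit of 50 reads, added after seeing the data, 4 of 628 positions were above 1 in wild type and 48 in mhen1-/-. The 2 further ones in wild type were base 28 of mt-Rnr2, with 1.09 from 158 and 103 reads, and base 419 of mt-Rnr1, with 1.07 from 134 and 89 reads. Base 419 had a ratio of 8.05 in mhen1-/-, from 95 and 53 reads. The 3′ ends of other RNAs were not counted in this way, so the numbers of positions above 1 have no background beside them. Ends a few bases away stayed below 1. Base 699 had 0.0705 in wild type and 0.337 in mhen1-/-, base 700 had 0.0295 and 0.866, and base 706 had 0.0500 and 0.241. Base 700 was thus below the lower quartile of 0.0420 in wild type but above the upper quartile of 0.427 in mhen1-/-.

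The end at base 695, which held the most untreated wild type reads within 10 bases, gives a contrast among fragments that start at the same bases. Reads ending there numbered 455 in wild type with NaIO4 and 5718 in untreated wild type, a ratio of 0.0567, and 240 and 3527 in mhen1-/-, a ratio of 0.306. The fragment 674-702 printed above had 1003 reads in wild type with NaIO4 and 388 in untreated wild type, and 787 and 423 in mhen1-/- with and without NaIO4. The fragment 674-695, which starts at the same base and is shorter at its 3′ end, had 131 and 1395 in wild type and 49 and 798 in mhen1-/-. Reads that ran across base 702, from base 700 or before to base 705 or beyond, had a ratio of 0.0473 in wild type (318 and 4783 reads) and 0.256 in mhen1-/- (232 and 4073 reads). Reads that started at base 703 were few, 9 in wild type with NaIO4 and 60 in untreated wild type.

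The end at 702 was reached from 18 first bases, 668 to 685, which are all that the length window allows, and all 18 had a ratio above 1 in both genotypes, from 1.09 to 3.47 in wild type and from 6.48 to 34.1 in mhen1-/-. The shortest, 685-702 with 18 nt, had 1806 reads in wild type with NaIO4, 1390 in mhen1-/- with NaIO4, 274 in untreated mhen1-/-, 217 in mili-/-, 1 in the immunoprecipitate and 371 in untreated wild type. It made up 22.6% and 21.6% of the reads ending at 702 with NaIO4 in wild type and mhen1-/-, against 10.4% in untreated mhen1-/- and 12.8% in untreated wild type. As reads below 18 nt were not counted, shorter fragments with this end were not analysed here.

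**Figure D3:**
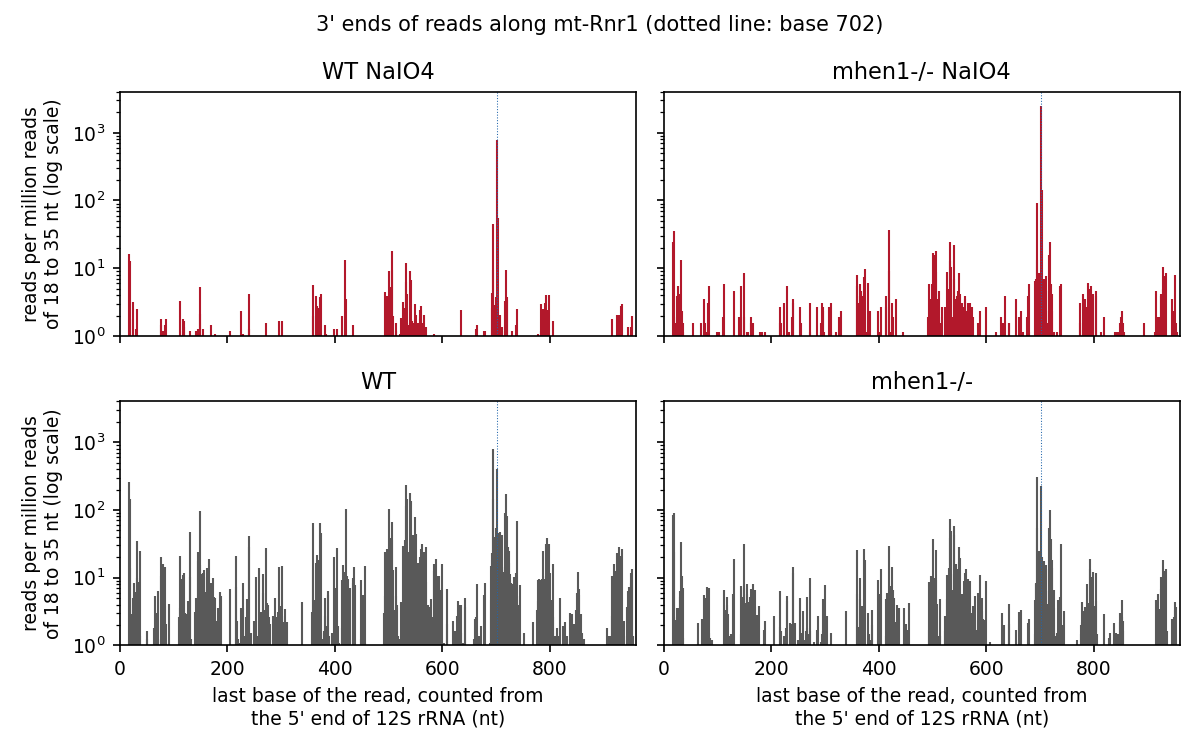
RPM (log scale, values above 1 drawn) by the last base of the read along 12S rRNA, with NaIO4 in the upper panels and without it in the lower ones, for wild type on the left and mhen1-/- on the right. With NaIO4 the line at base 702 reaches 778 in wild type and 2475 in mhen1-/-, while most other ends are lower than in the untreated library below.

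Counted by whole sequence, 486 mitochondrial sequences reached 50 reads in untreated mhen1-/- and in untreated wild type, 386 of rRNA, 99 of tRNA and 1 of mRNA. In wild type 3 of them had a ratio of 2 or more with NaIO4, where 8.36% of all 5098 sequences with as many reads did, and 466 were at least 2-fold lower, where 55.3% were. All 3 end at base 702. In mhen1-/- 18 were at least 2-fold higher, where 13.3% of all sequences were, and 404 were at least 2-fold lower, where 73.0% were. Of the 18, 12 end at base 702 and the others were 3 fragments of mt-Rnr2 ending at bases 28, 29 and 34 and 1 fragment each of mt-Tp, mt-Ts1 and mt-Tv. Without reads ending at 702 or 703, mt-Rnr1 had NaIO4 ratios of 0.0777 in wild type and 0.387 in mhen1-/-, near those of mt-Rnr2. The whole mitochondrial share then had ratios of 0.0890 and 0.409. This was a setting added after seeing the data.

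The last base of the fragment moved with this end too. mt-rRNA fragments ending in A had a wild type NaIO4 ratio of 0.210, against 0.0857 for C, 0.0687 for G and 0.0914 for T. Without ends 702 and 703 the ratio for A was 0.0817, and T stood at 0.0851.

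The other ends with the highest wild type ratios lay in mt-Rnr2, mt-Rnr1 and mt-Tv. Base 30 of mt-Rnr2 had a ratio of 0.597 (99 and 118 reads), base 454 of mt-Rnr2 0.560 (184 and 234), base 506 of mt-Rnr1 0.514 (187 and 259) and base 53 of mt-Tv 0.426 (223 and 373). In mhen1-/- the same ends had 0.921, 2.09, 1.97 and 2.48. Only 5 of the 352 positions had a ratio above 0.5 in wild type, with no count over the 3′ ends of other RNAs beside it.

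Mature tRNA 3′ ends behaved differently from the rest of the tRNA. Reads that run through the last encoded base and end in the added CCA do not match the annotated genes, so they stand outside the 37-gene totals. They numbered 3185 in wild type with NaIO4, 1537 in mhen1-/- with NaIO4, 979 in untreated mhen1-/-, 1462 in mili-/-, 532 in the immunoprecipitate and 1787 in untreated wild type. The NaIO4 ratio was 1.27 (1.20 to 1.35) in wild type and 7.05 (6.51 to 7.65) in mhen1-/-, both above 1. Reads that stop after CC, 1 base short, numbered 299 in wild type with NaIO4 and 1638 in untreated wild type, a ratio of 0.130 (0.115 to 0.147). In mhen1-/- they numbered 99 and 1018, a ratio of 0.437. The ratio of the CCA end was thus 9.76 times that of the CC end in wild type and 16.1 times in mhen1-/-.

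Ends with no added base had a ratio of 0.0905 in wild type and 0.614 in mhen1-/-, from 75 and 590 reads and from 60 and 439 reads. Ends with C alone had 0.514 and 1.10. For 13 of the 22 tRNAs the next genome base is known from an adjoining gene, and it was C for 1 of them, mt-Ts2, and CC or CCA for 0. For the other 9, a single C could be encoded in the genome, which was not tested.

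All 22 tRNAs had reads ending in CCA. Of the 14 with at least 50 such reads in both wild type libraries together, 11 had a ratio above 1 and 6 of at least 2, with a median of 1.67, and 0 were at least 2-fold lower. Of all genes 15.8% had a ratio of at least 2 and 9.68% were at least 2-fold lower, and their median was 1.33. The ratio of 1.27 for all CCA reads together lay below that median. The share of all genes above 1 was not counted. In mhen1-/- all 9 with enough reads were at least 2-fold higher, where 7.72% of all genes were. Their median was 7.32, where all genes had 0.456. mt-Tw had the most, 1188 reads in wild type with NaIO4 and 950 in untreated wild type, a ratio of 0.891, and 377 and 463 in mhen1-/-, a ratio of 3.66. mt-Ts2 had 382 and 97 reads in wild type, a ratio of 2.80, and 159 and 20 in mhen1-/-, a ratio of 35.7. mt-Te had 350 and 84 reads in wild type, a ratio of 2.97, and 261 and 46 in mhen1-/-, a ratio of 25.5. mt-Tv had 376 and 348, a ratio of 0.769, and 191 and 219, a ratio of 3.92. mt-Tf, which barely appeared among the encoded fragments, had 110 CCA reads in wild type with NaIO4 and 2 in untreated wild type, and 35 and 10 in mhen1-/-.

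The printed mt-Te fragment 50-CCA had 110 reads in wild type with NaIO4, 75 in mhen1-/- with NaIO4, 5 in untreated mhen1-/-, 19 in mili-/-, 50 in the immunoprecipitate and 13 in untreated wild type. The mt-Ts2 fragment 39-CCA had 116, 44, 3, 16, 2 and 33 reads in the same order. As shares of the library, both were higher with NaIO4 in each genotype. The 95% interval of the wild type ratio was 3.38 to 11.7 for mt-Te and 1.69 to 3.81 for mt-Ts2. Both fragments were picked because their counts led in the treated wild type library, the numerator of this ratio. That choice favours a high value, so their wild type ratios are a description. The mt-Tw fragment 49-CCA had 203, 99, 132, 168, 9 and 229 reads, and its share ratio was 0.631 (0.520 to 0.766) in wild type and 3.37 (2.57 to 4.41) in mhen1-/-. It was picked by its count in the untreated wild type library, the denominator, which favours a low wild type value.

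Among reads that match the annotated tRNA genes, those starting at base 1 had a NaIO4 ratio of 0.174 in wild type and 0.584 in mhen1-/-, and the others 0.0990 and 0.406. With the reads that carry an added C, CC or CCA counted among the others, their ratios were 0.165 in wild type and 0.657 in mhen1-/-, so that in mhen1-/- the order turned. Reads starting at base 1 made up 42.7% of annotated tRNA reads in wild type with NaIO4 and 44.0% in mhen1-/- with NaIO4, against 35.3% in untreated mhen1-/- and 29.8% in untreated wild type. The tRNAs differed widely here: in untreated wild type 82.7% of mt-Ts2 reads and 82.2% of mt-Ts1 reads started at base 1, against 3.70% of mt-Tv reads and 0.185% of mt-Te reads. Reads from base 1 of the rRNAs had ratios of 0.179 in wild type and 0.566 in mhen1-/-, against 0.112 and 0.633 for the other rRNA reads. The other reads include those ending at bases 702 and 703 of mt-Rnr1. Without these ends all mt-rRNA reads together had 0.0828 in wild type and 0.398 in mhen1-/-. Both values lie below those of the reads from base 1.

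**Figure D4:**
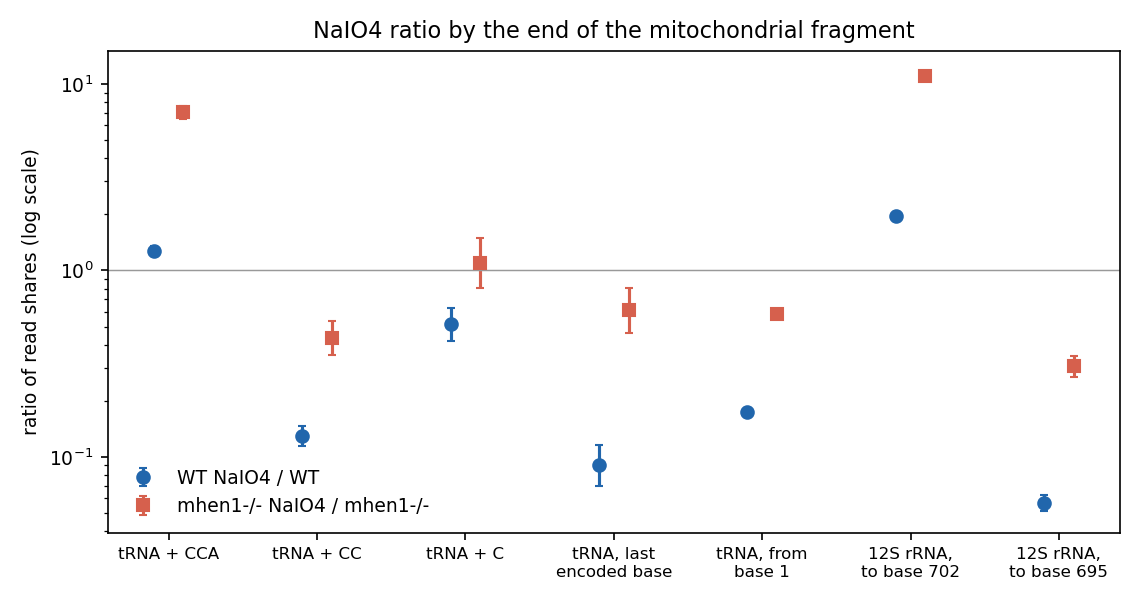
NaIO4 ratio of the read share (log scale) for tRNA reads by their 3′ end, tRNA reads starting at base 1, and 12S rRNA reads ending at bases 702 and 695, in wild type (circles) and mhen1-/- (squares), with 95% counting intervals from 1 library per group. The CCA end and base 702 lie above 1 in both genotypes (1.27 and 1.97 in wild type), while the CC end (0.130) and base 695 (0.0567) lie below 1.

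Untreated mhen1-/- cells had a lower mitochondrial share than wild type. It was 1.59% of reads in mhen1-/- and 3.32% in wild type, a ratio of 0.478 (0.475 to 0.480). The ratio was 0.459 for mt-rRNA, 0.552 for mt-tRNA and 0.479 for mt-mRNA. All 37 genes had ratios below 1, where the median over all genes was 0.954, also below 1. Of the 37 genes, 14 were at least 2-fold lower, where 10.4% of all 19718 genes were. None was at least 2-fold higher, where 7.20% of all genes were. These ratios ran from 0.285 for mt-Tw to 0.744 for mt-Nd1. Per microRNA read the mitochondrial ratio was 1.24, as microRNAs themselves had a share ratio of 0.385. The end at base 702 had a ratio of 0.569, and 12S without ends 702 and 703 had 0.420.

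The mitochondrial share of reads was nearly the same in mili-/- and wild type cells. Mitochondrial RNAs made up 3.41% of reads in mili-/- (163773 reads) and 3.32% in wild type, a ratio of 1.02 (1.02 to 1.03). The ratio was 1.00 for mt-rRNA, 1.12 for mt-tRNA and 1.02 for mt-mRNA. None of the 37 genes was 2-fold lower, where 82.6% of all 15329 genes were, and none was 2-fold higher, where 2.56% were. The range ran from 0.726 for mt-Nd3 to 1.41 for mt-Tl1. The median over all genes was 0.0993. Reads at the 5′ end of the rRNAs had a ratio of 1.53, and the fragment mt-Rnr2 1-21 had 2293 reads in mili-/- and 1990 in wild type, a ratio of 1.75. Per microRNA read the mitochondrial ratio was 0.578, and with each distinct sequence counted once it was 3.61.

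In RNA bound by the MILI antibody mitochondrial reads were scarce. They made up 0.0543% of reads in the immunoprecipitate (13694 reads) and 3.32% in wild type, 61.3-fold lower. All 37 genes were at least 2-fold lower, where 10.7% of all 24335 genes were and the median over all genes was 1.80. The decrease was 92.2-fold for mt-rRNA, 33.5-fold for mt-tRNA and 32.1-fold for mt-mRNA, so the rRNAs held 47.7% of mitochondrial reads in the immunoprecipitate, against 71.8% in wild type. Per microRNA read the mitochondrial ratio was 0.371.

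The tRNAs spread over the widest range in the immunoprecipitate. mt-Tp had a ratio of 0.00375 from 47 reads and mt-Tn (asparagine) 0.00420, while mt-Ts2 had 0.0995 (0.0947 to 0.104) from 2189 reads and mt-Tf 0.102. With ends carrying added C, CC or CCA counted, mt-Te stood at 0.0324, against 0.00511 without them, and mt-Tf at 0.204. As a group the 8 tRNAs on the minus strand had a ratio of 0.00902 and the 14 on the plus strand 0.0417, without reads with added ends. mt-Te is on the minus strand. mt-Ts2 is on the plus strand and alone gave 2189 of its 3929 tRNA reads and of the 4413 tRNA reads of both strands. Fragments from the 5′ end of mt-Ts2 led: mt-Ts2 1-22 had 587 reads in the immunoprecipitate, mt-Ts2 1-19 had 381 and mt-Ts2 1-21 had 358. The fragment mt-Rnr1 509-530 was higher there, with 103 reads in the immunoprecipitate and 12 in wild type, a ratio of 2.49 (1.37 to 4.98). Of all 24335 genes 43.7% were at least 2-fold higher in the immunoprecipitate. That share is of whole genes, and the share over single sequences was not counted. The fragment was chosen for its reads in the immunoprecipitate, so its ratio is a description. It had 0 reads in both NaIO4 libraries, 10 in untreated mhen1-/- and 10 in mili-/-. A count of 0 allows up to 3 reads.

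**Figure D5:**
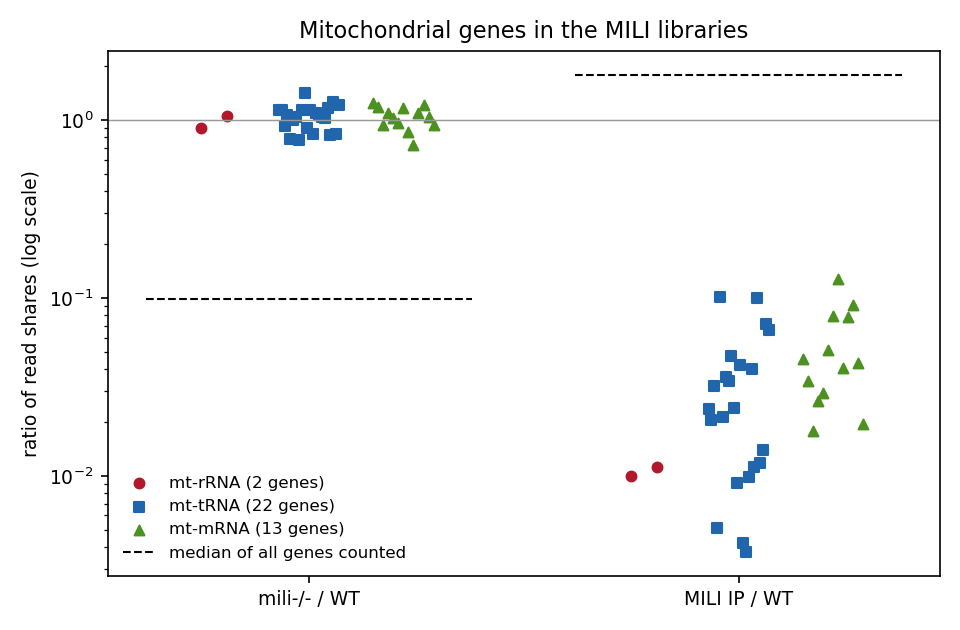
Ratio of the read share to untreated wild type (log scale) for each of the 37 mitochondrial genes in mili-/- cells and in the MILI immunoprecipitate, coloured by class, with 1 library per group; dashed lines give the median over all genes with at least 50 reads. The mitochondrial genes lie from 0.726 to 1.41 in mili-/-, where the median of all genes is 0.0993, and from 0.00375 to 0.128 in the immunoprecipitate, where it is 1.80.

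The fragments differed from the libraries as a whole in length and first base. In untreated wild type 37.7% of mitochondrial reads were of 25 to 31 nt, against 46.5% of all reads. Among those the share with T as first base, which is U in the RNA and usual for piRNAs, was 16.8% for mitochondrial reads and 68.9% for all reads. In the immunoprecipitate it was 20.7% for mitochondrial reads and 84.9% for all reads. Lengths were spread in untreated wild type, and the most common length, 22 nt, held 7.62% of mitochondrial reads. In wild type with NaIO4 it was 18 nt, with 9.54%, and in mhen1-/- with NaIO4 also 18 nt, with 9.91%. The single 18 nt fragment mt-Rnr1 685-702 gave 1806 of the 38583 mitochondrial reads in wild type with NaIO4. In mhen1-/- with NaIO4 it gave 1390 of 23454. The most common length without this fragment was not counted. Reads of 32 to 35 nt were fewer with NaIO4, 13.7% in wild type with NaIO4 against 20.1% in untreated wild type, and 14.1% against 24.1% in mhen1-/-. In the immunoprecipitate 61.9% of mitochondrial reads were of 18 to 24 nt.

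Nuclear genes of the same pathways gave reads with another pattern. Of 79 listed nuclear subunits of the respiratory complexes and ATP synthase, 75 met the read limit in wild type, with 8 higher and 1 lower by 2-fold or more with NaIO4, where 15.8% and 9.68% of all genes were. Their median ratio was 1.63, where the median over all genes was 1.33. In mhen1-/- 57 of 73 were at least 2-fold lower and 1 higher with NaIO4, where 55.8% and 7.72% of all genes were, with a median of 0.343 where all genes had 0.456. In mili-/- 69 of 71 were at least 2-fold lower than in wild type, where 82.6% of all genes were, with a median of 0.0321 where all genes had 0.0993. Atp5l, a subunit of ATP synthase and the listed gene with the most wild type reads, had a ratio of 0.962 with NaIO4 in wild type and 0.302 in mhen1-/-, 0.0811 in mili-/- and 1.85 in the immunoprecipitate. Of 23 listed nuclear genes for mitochondrial transcription and RNA processing, 14 met the read limit against mili-/- and all 14 were at least 2-fold lower there, again beside 82.6% of all genes. The mitochondrial mRNAs of the same complexes thus had lower ratios with NaIO4 in wild type, and higher ones in mili-/-, than these nuclear lists.

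Nuclear copies of mitochondrial sequence limit what can be said of the mRNAs. Of the mt-mRNA reads in untreated wild type 58.0% also matched another annotated gene in sense, 14841 of 25606, against 0.759% of mt-rRNA and 0.114% of mt-tRNA reads. The share was 56.5% in wild type with NaIO4 and 54.9% in mhen1-/- with NaIO4. From which copy such reads came cannot be told apart. With such reads left out, mt-Nd3 had too few reads for a ratio in any comparison. mt-Co3 had too few in the immunoprecipitate and wild type together. For mt-Co2, mt-Co3 and mt-Atp6 the quotient of both NaIO4 ratios then had no value. The ratios above for these genes and their complexes thus rest in part on reads that another gene could have given.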

How the data were processed

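Each of the 6 deposited files lists distinct read sequences with the count of reads, made by the authors by collapsing identical reads; no header is present and no scaling was found. Per the submitters' processing notes the tools include Bowtie, with no version, and the build is mm10; adapter trimming is not given in the sources used here. Libraries were made from 0.5 µg of RNA, with spike-ins in 5 of them per the labels, whose sequences were not used here. Sequences of 18 to 35 nt were matched exactly and in sense to GENCODE M21 transcripts (GRCm38) by a full scan (numba 0.67.0), checked on simulated data. Tables used pandas 2.3.3 and pyarrow 21.0.0, intervals scipy 1.17.1 and numpy 2.4.6, and figures matplotlib 3.10.9, all under Python 3.11.15. The files held 2833286 to 26292082 reads, of which 90.5% to 96.0% were of 18 to 35 nt.

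Shares have exact Clopper-Pearson intervals and ratios of shares exact conditional binomial ones, at 95%. Genes were counted with at least 50 reads in the pair of libraries, sequences with at least 50 and 3′ ends with at least 100 in both untreated libraries, at a fold of 2. Named were both rRNAs, the 8 tRNAs and 6 mRNAs with most wild type reads, the extremes of each class and comparison, and leading sequences by reads or NaIO4 ratio. The named nuclear gene, the ends listed beside base 702, and the tRNAs named for their CCA reads, 5′ ends or low immunoprecipitate ratios were chosen after their values were seen. Members, lists and rules were chosen with earlier results of these data known. Alternatives were other totals, distinct sequences, reads unique to a gene, 1 mismatch, an added CCA and other length, read and fold limits.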

Additional observations from a re-analysis of the deposited data

Results flagged for a closer look

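mt-Rnr1 moved in opposite directions with NaIO4 in the 2 genotypes, with a ratio of 1.16 (1.13 to 1.18) in mhen1-/- and 0.182 (0.179 to 0.185) in wild type; the difference was not tested. Without reads ending at bases 702 and 703 both lay below 1, at 0.387 and 0.0777. Reads antisense to mitochondrial genes did the same, with 1.21 (1.15 to 1.28) in mhen1-/- and 0.299 (0.286 to 0.314) in wild type, also not tested. The mhen1-/- ratio was 6.36 times the wild type ratio for mt-Rnr1 and 4.04 times for antisense reads. It was also 4.84 times for microRNAs and 4.44 times for nuclear rRNA fragments, so a higher NaIO4 ratio in mhen1-/- was not particular to these reads.

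Signals outside the 37-gene counts were present in untreated wild type: 6011 antisense reads, 570 reads across the boundary of adjoining genes and 1787 tRNA reads ending in CCA. The reads across boundaries had NaIO4 ratios of 0.0687 in wild type and 0.364 in mhen1-/-.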

How the results depend on the processing

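Ratios of the mitochondrial share are given in a fixed order: wild type with NaIO4 against wild type, mhen1-/- with NaIO4 against mhen1-/-, mhen1-/- against wild type, mili-/- against wild type, the immunoprecipitate against wild type, and the mhen1-/- NaIO4 ratio over the wild type one. They were 0.107, 0.576, 0.453, 1.06, 0.0159 and 5.40 for reads of 20 to 31 nt, and 0.117, 0.548, 0.491, 1.00, 0.0169 and 4.70 over reads of every length. Per microRNA read they were 1.41, 1.47, 1.24, 0.578, 0.371 and 1.04, so 4 of the 6 changed direction. With each distinct sequence counted once they were 0.163, 1.62, 0.412, 3.61, 0.0343 and 9.92, and the mhen1-/- NaIO4 ratio changed direction. With the 10 top sequences of every library left out they were 0.109, 0.858, 0.462, 1.20, 0.0145 and 7.87. With 1 mismatch allowed, the last 5 were 0.551, 0.492, 1.04, 0.0180 and 4.87. With CCA added to tRNAs the first 2 and last 2 were 0.122, 0.601, 0.0171 and 4.94. Without reads that match another gene, both NaIO4 ratios and the immunoprecipitate ratio were 0.115, 0.582 and 0.0154. Without 12S ends 702 and 703, added after seeing the data, both NaIO4 ratios and their quotient were 0.0890, 0.409 and 4.59.

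Per microRNA read, mt-rRNA had 1.45 with NaIO4 in wild type and 1.19 in mhen1-/- against wild type. mt-tRNA had 1.52 with NaIO4 in wild type, 1.21 in mhen1-/- and a quotient of 0.800, and mt-mRNA 1.24 in mhen1-/- against wild type and a quotient of 0.972. With distinct sequences counted once, mt-tRNA had 1.80 with NaIO4 in mhen1-/-. The cause of these moves was not tested. At 4-fold, 0 of 486 mitochondrial sequences were higher with NaIO4 in wild type, beside 0.510% of all sequences, and 247 lower in mhen1-/-, beside 42.8%. With at least 20 reads, of 1405, 8 were higher and 1363 lower in wild type, beside 11.5% and 47.4%, and 45 higher and 1114 lower in mhen1-/-, beside 11.5% and 72.0%. Of 159 gene ratios, CCA kept the direction of 157 and moved 16 by over 1.5 times, and 1 mismatch moved 6. No paired analysis was possible because each group has 1 library, which also limits every value above to counting error.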

Other observations

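Reads antisense to mitochondrial genes numbered 2526 in wild type with NaIO4, 1757 in mhen1-/- with NaIO4, 6527 in untreated mhen1-/-, 3913 in mili-/-, 695 in the immunoprecipitate and 6011 in untreated wild type. In untreated wild type 1724 of them lay opposite mt-Tp and 1184 opposite mt-Nd5. These sources differed with NaIO4, as the ratio was 0.0599 opposite mt-Tp, 0.444 opposite mt-Nd5, 0.648 opposite mt-Nd4 and 0.670 opposite mt-Nd4l. Of the 9 antisense 3′ ends that reached 100 reads in untreated mhen1-/- and in untreated wild type, 2 had a ratio above 1 in wild type. No count over the ends of other RNAs was made beside it. The end opposite mt-Nd5 at chrM position 13161 had 367 reads in wild type with NaIO4 and 213 in untreated wild type, a ratio of 1.23, and 341 and 264 in mhen1-/-, a ratio of 5.80. The end opposite mt-Nd4 at position 11496 had 266 and 181 reads, a ratio of 1.05, and 192 and 192 in mhen1-/-, a ratio of 4.49. The end opposite mt-Nd4l at position 10031 had 442 and 403 reads, a ratio of 0.781, and 301 and 428, a ratio of 3.16. All 6 ends opposite mt-Tp lay between 0.0229 and 0.0883 in wild type. These positions were chosen after their values were seen.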
